A study of Homo sapiens with 8 samples.

Results

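The genes described are the 57 Wnt pathway genes measured by RNA-sequencing in OVCA429, a long-established line of human ovarian cancer, out of 57820 genes in the table. They were chosen by symbol alone: the WNT and FZD (Frizzled) families, the secreted antagonists of the SFRP and DKK families and WIF1, the receptors LRP5, LRP6, ROR1, ROR2 and RYK, the regulators of Frizzled turnover LGR4, LGR5, RNF43 and ZNRF3, and named genes of the cytoplasmic and nuclear steps. All 57 symbols were in the table.

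Wnt ligands are secreted lipid-modified proteins that bind Frizzled receptors. With the co-receptors LRP5 or LRP6 they stop a cytoplasmic complex of APC, AXIN and GSK3 from destroying β-catenin, which then enters the nucleus and activates genes together with TCF/LEF factors. Other branches pass through ROR and RYK receptors to cell polarity and movement. Several genes of the pathway, AXIN2 first among them, are themselves known targets of β-catenin and TCF.

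Both groups were OVCA429 cells grown under puromycin selection. The control group carried a short hairpin RNA against luciferase (shLuc), and the other, shGRHL2, a hairpin against the transcription factor GRHL2, which is known from epithelia. The study's methods describe stable lines, and the comparison addresses what follows the loss of GRHL2 in epithelial–mesenchymal transition (EMT). A single hairpin against GRHL2 was sequenced, so an effect of GRHL2 loss and an effect of that hairpin or line cannot be told apart.

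The labels give 8 samples, 4 per group, with lane-like suffixes. Among genes at 100 FPKM or more (fragments scaled to transcript length and to the total of the run) the median coefficient of variation came to 2.72% over 763 genes in shLuc and to 2.79% over 656 genes in shGRHL2, both under 3%, the limit below which the samples of a group were taken for runs of 1 library. Each group was therefore counted as 1 library sequenced in 4 runs. Every SD below is between runs, no difference has a check between cultures, and no p-value is given. The steps of low values put the depth of a run at 9.36 to 9.69 M fragments in shLuc and at 10.0 to 10.24 M in shGRHL2, in all 38.1 M and 40.4 M. These are fragments assigned to genes, a measure unlike the unique reads counted in the paper's methods. Mitochondrial ribosomal RNA took 17.0% of fragments in every shLuc run and 25.4% in every shGRHL2 run, which lowers the FPKM of all other genes of that library. Markers of ovarian carcinoma epithelium were present, 8 of 8 at 1 FPKM or more in shLuc (summed level 4969 to 5036 FPKM) and 7 of 8 in shGRHL2 (1801 to 1857 FPKM). Summed markers of fibroblasts were at 1.23 to 3.5 FPKM and 3.61 to 5.32 FPKM with DCN at 0 in all runs, and those of leukocytes at 2.56 to 4.34 and 9.38 to 10.4 FPKM with CD3E at 0. Means were higher in shGRHL2 for COL1A1 (1.19 and 3.64 FPKM), LAPTM5 (1.76 and 6.39 FPKM) and CD68 (0.88 and 2.74 FPKM). The other markers of these lists had means under 1 FPKM in both libraries. The 8 endothelial markers analysed (PECAM1 was not analysed here) summed to 1.37 to 1.69 FPKM in shLuc and 94.5 to 99.8 FPKM in shGRHL2, of which TIE1 made 84.7 ± 1.90 FPKM.

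In shLuc, the 4 runs gave GRHL2 itself 31.5, 38.69, 33.35 and 31.98 FPKM. In the 4 shGRHL2 runs it was at 0.13, 0.15, 1.17 and 0.1 FPKM. The groups did not overlap, and run 3 of shGRHL2 lay far above the other 3. The difference in log2(FPKM + 1) was −4.71 ± 0.49.

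Differences are given as shGRHL2 minus shLuc in mean log2(FPKM + 1), and a gene counts as higher or lower where the difference reaches 1, which is 2-fold on that scale. Genes were kept where either group had a mean of 1 FPKM or more, and 15019 genes of the table passed, with 31 of the 57 Wnt pathway genes. Of all kept genes 4.97% were higher and 7.24% lower in shGRHL2. Of the 31 Wnt pathway genes 5 (16.1%) were higher (AXIN2, DKK3, FZD4, PORCN and SFRP1), 3 (9.68%) were lower (LRP5, WNT7A and WNT10A) and 23 lay within the limit. All 4 shGRHL2 runs lay above all 4 shLuc runs for 18.5% of all kept genes and below them for 33.2%. The same held for 7 and 16 of the 31 Wnt pathway genes, and the runs of the other 8 overlapped. The median difference of the 31 was −0.35, against −0.10 over all kept genes. RNF43, WNT9A and WNT10A were kept through shLuc alone and AXIN2, FZD4 and SFRP1 through shGRHL2 alone, so the filter fixed the sign of these 6. Of the 25 that reached 1 FPKM in both groups 2 were higher (8%, against 2.99% of all genes so kept) and 2 lower (8%, against 5.60%), with a median of −0.35 against −0.10. In bulk RNA, fewer cells with a transcript and less of it per cell cannot be told apart.

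DKK3, PORCN, LRP5 and WNT7A lay close to the limit, and scaling moved them across it. With samples set to equal medians, which raises the median difference of all genes by 0.11, 6 members were higher (FZD1 joined) and only WNT10A was lower. With TPM (a unit in which every run has the same total) 3 were higher (AXIN2, FZD4 and SFRP1) and the same 3 were lower. Of all genes past the limit 40.7% were higher as deposited, 50.9% with equal medians and 34.1% with TPM. AXIN2, FZD4, SFRP1 and WNT10A were past the limit under each of these scalings.

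**Figure D1:**
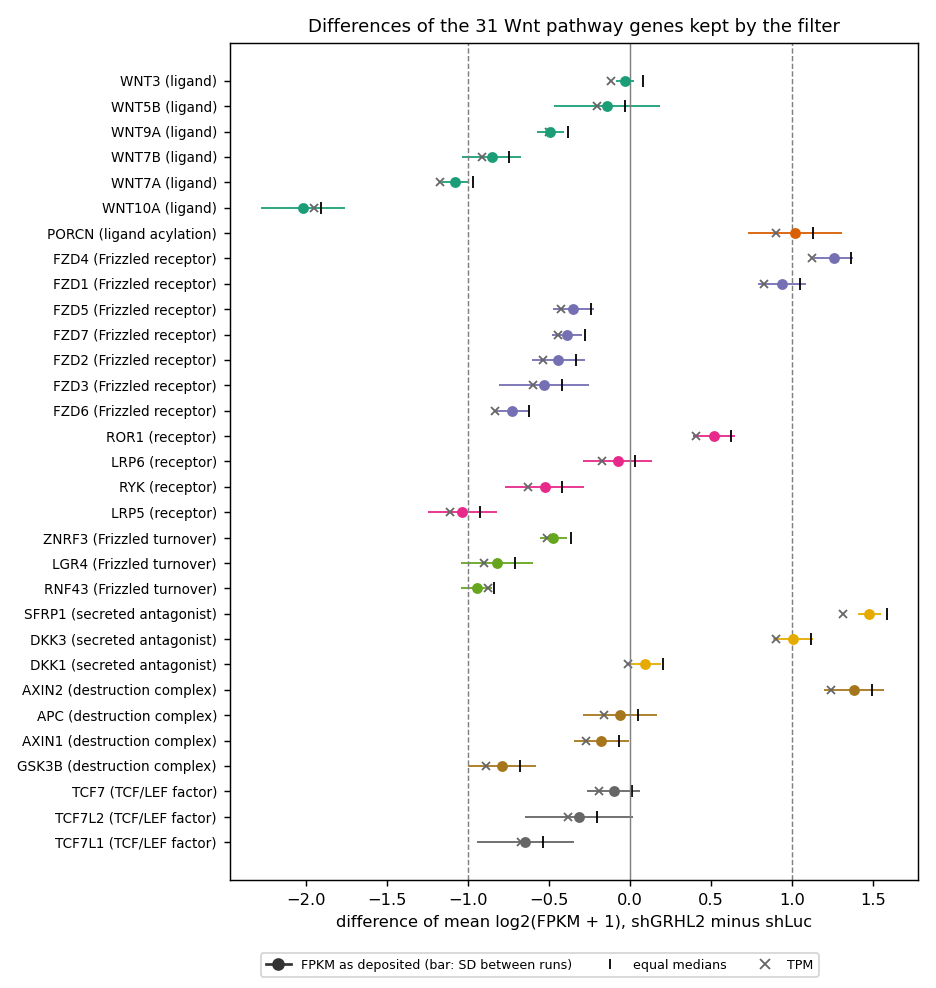
Difference of mean log2(FPKM + 1), shGRHL2 minus shLuc, for the 31 Wnt pathway genes kept by the filter, grouped by role. Points are FPKM as deposited with the SD between 4 runs per library as bars, ticks are values with equal medians, crosses are TPM, and dashed lines mark the limit of 1. Every kept ligand lies left of 0 as deposited, and WNT3 moves to 0.08 with equal medians. The filter fixed the sign of WNT9A and WNT10A, kept through shLuc alone.

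The ligands made up less of the RNA in shGRHL2. The 19 WNT genes summed to 54.9, 54.0, 55.6 and 53.0 FPKM in the 4 shLuc runs and to 28.1, 28.7, 27.1 and 28.3 FPKM in the 4 shGRHL2 runs. The sums did not overlap, and the mean was 1.94-fold lower. Of the 6 ligands kept, 2 were lower past the limit, none was higher, and all 6 differences were negative as deposited (WNT3 turned to 0.08 with equal medians). WNT9A and WNT10A were kept through shLuc alone, so the filter fixed their sign. Of all kept genes 7.24% were lower past the limit, and 8731 of 15019 differences were negative.

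WNT7A (chromosome 3, 13857755 to 13921568 on the minus strand, GRCh37), a ligand known for its role in the female reproductive tract and in limb patterning, was the most abundant WNT in both libraries. It was at 32.39, 30.9, 31.47 and 30.75 FPKM in shLuc and at 14.19, 14.48, 13.4 and 15.32 FPKM in shGRHL2. The libraries were clearly apart, and the runs of each stayed close together. The mean was 2.19-fold lower (95% exact interval 2.08 to 2.30, counting error only), a difference of −1.08 ± 0.08 in log2(FPKM + 1). With equal medians the difference was −0.97, just inside the limit. WNT7A made 57.7% of the summed ligand FPKM in shLuc and 51.2% in shGRHL2.

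WNT10A (chromosome 2, 219745574 to 219764303 on the plus strand, GRCh37), a ligand known from tooth, hair and skin development, had the largest difference of the 31 genes. It was at 4.27, 4.87, 4.96 and 4.42 FPKM in shLuc. It was at 0.2, 0.62, 0.6 and 0.2 FPKM in shGRHL2. The groups stood far apart, and within shGRHL2 runs 2 and 3 were above runs 1 and 4. These values correspond to about 423 and 39.2 fragments per library, an 11.4-fold lower mean (95% exact interval 8.28 to 16.4) and a difference of −2.02 ± 0.26. Its share of the summed ligand FPKM was 8.52% in shLuc and 1.45% in shGRHL2.

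WNT3, a ligand that activates β-catenin signalling and is needed for the primitive streak of the embryo, did not separate the libraries. It was at 5.4, 5.32, 5.9 and 5.5 FPKM in shLuc and at 5.45, 5.34, 5.38 and 5.41 FPKM in shGRHL2. The runs overlapped, with a difference of −0.03 ± 0.06 that was 0.08 with equal medians and −0.12 with TPM. The share of WNT3 in the summed ligand FPKM went from 10.2% to 19.3%. WNT7B, the close relative of WNT7A, had means of 6.03 ± 0.39 and 2.91 ± 0.46 FPKM with runs that did not overlap, a difference of −0.85 within the limit. WNT9A was at 1.21 ± 0.11 and 0.573 ± 0.05 FPKM (−0.49), again with no overlap. WNT5B, which acts mainly outside the β-catenin branch, was at 2.08 ± 0.62 and 1.76 ± 0.26 FPKM with overlapping runs.

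The other 13 ligands had means under 1 FPKM in both libraries. WNT10B was the highest of them in shLuc, at 0.89 to 1.13 FPKM, and at 0.33 to 0.65 FPKM in shGRHL2 with no overlap. WNT5A, the best known ligand of the polarity branch, was at 0.41 to 0.95 and 0.29 to 0.41 FPKM, so that runs met at 0.41. WNT16, WNT2B and WNT4 overlapped between the libraries. WNT1, WNT2, WNT8A and WNT9B were listed at 0 in all 8 runs, and WNT3A, WNT6, WNT8B and WNT11 never exceeded 0.21 FPKM.

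**Figure D2:**
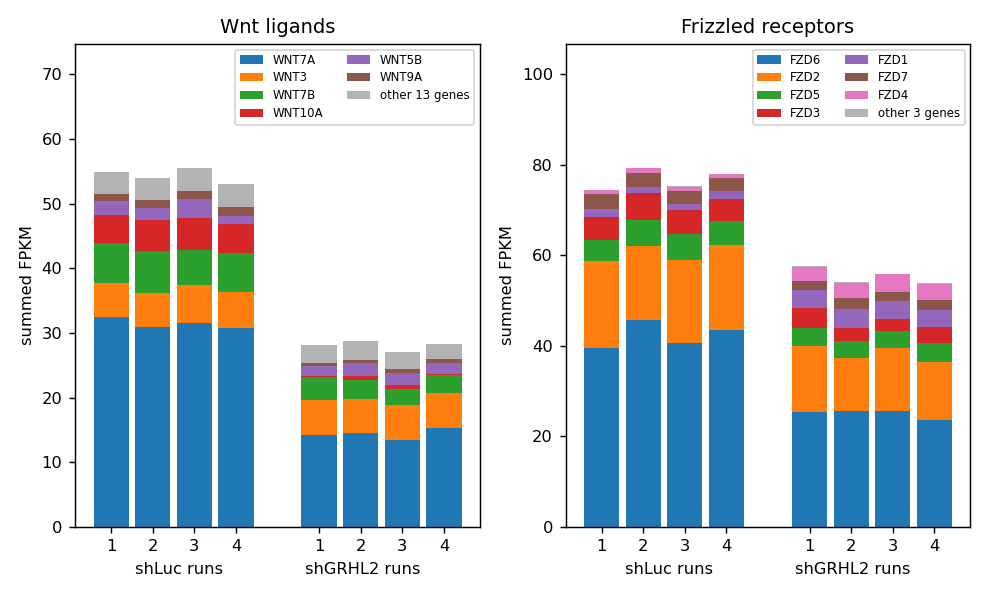
Summed FPKM of the 19 WNT genes (left) and the 10 Frizzled receptor genes (right) in each of the 4 sequencing runs per library, stacked by gene. The ligand sums lie between 53.0 and 55.6 FPKM in shLuc and between 27.1 and 28.7 in shGRHL2, and the segments of FZD1 and FZD4 are taller in shGRHL2.

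The promoters of both ligands past the limit hold the short form of the GRHL motif and are printed for that reason. GRHL factors are known to bind the motif AACCNGTT. The letters AACCNGTT, AACCGG (which overlaps the first where N is G), CACCTG (the E-box read by ZEB and SNAI factors) and ACAAAG (the TCF/LEF core) were searched on both strands of RefSeq promoters of build GRCh38.p14, from 250 bases before to 50 after a gene start. The table gave 49 promoters for 40 of the 57 genes, among them 21 of the 31 kept, and 35116 promoters in all. AACCNGTT was in 0 of the 49 and in 1.73% of all promoters. AACCGG was in 3 of the 49 (6.12%) and in 7.23% of all, CACCTG in 10 (20.4%) and in 20.6% of all, and ACAAAG in 9 (18.4%) and in 16.1% of all. The 3 promoters with AACCGG belong to WNT10A, WNT7A and FZD1, of which FZD1 was not lower but had a positive difference. The capitals mark AACCGG or its reverse complement CCGGTT, which begins 83 bases before the start of WNT10A and 239 bases before that of WNT7A. A match of letters is a description and shows no binding.
WNT10A (chr2:218880602-218880901, plus strand): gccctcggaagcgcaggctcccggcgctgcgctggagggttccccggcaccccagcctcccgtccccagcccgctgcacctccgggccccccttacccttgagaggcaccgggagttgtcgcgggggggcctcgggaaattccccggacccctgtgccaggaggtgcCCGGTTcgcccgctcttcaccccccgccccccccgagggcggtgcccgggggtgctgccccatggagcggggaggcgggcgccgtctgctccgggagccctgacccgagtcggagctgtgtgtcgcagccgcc
WNT7A (chr3:13880022-13880321, minus strand): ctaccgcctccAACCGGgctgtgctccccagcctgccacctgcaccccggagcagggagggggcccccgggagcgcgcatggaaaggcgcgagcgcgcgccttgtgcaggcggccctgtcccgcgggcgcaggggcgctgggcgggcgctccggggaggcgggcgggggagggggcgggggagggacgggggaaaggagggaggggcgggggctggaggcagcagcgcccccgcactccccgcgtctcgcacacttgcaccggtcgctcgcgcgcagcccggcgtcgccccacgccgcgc

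PORCN (chromosome X, 48367347 to 48379202 on the plus strand, GRCh37), the acyltransferase that attaches the lipid which Wnt ligands need for secretion and receptor binding, was higher in shGRHL2. It was at 4.76, 2.78, 4.48 and 3.26 FPKM in shLuc and at 8.57, 8.56, 8.5 and 8.85 FPKM in shGRHL2. The groups did not overlap, but the shLuc runs were spread widely, with runs 1 and 3 above runs 2 and 4. The mean was 2.26-fold higher (95% exact interval 1.87 to 2.72), a difference of 1.02 ± 0.29 that was 0.90 with TPM. Without shLuc run 2 it was 0.91 and without shLuc run 4 it was 0.97, both within the limit. The ligand carrier WLS, from the list of other pathway genes, was at 43.6 ± 2.28 and 33.3 ± 1.5 FPKM.

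The Frizzled receptors shifted in make-up. The 10 FZD genes summed to 76.7 ± 2.29 FPKM in shLuc against 55.3 ± 1.74 FPKM after the knockdown, a 1.39-fold lower mean with no overlap. Of the 7 kept, 5 had all shGRHL2 runs below all shLuc runs (FZD2, FZD3, FZD5, FZD6 and FZD7) and 2 had them above (FZD1 and FZD4), against 33.2% and 18.5% of all kept genes. The signs of these 7 differences were the same with equal medians and with TPM. That of FZD4, kept through shGRHL2 alone, was fixed by the filter.

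FZD6, known from planar polarity and hair patterning, was the most abundant Frizzled. It was at 39.4, 45.58, 40.67 and 43.45 FPKM in shLuc and at 25.42, 25.6, 25.56 and 23.68 FPKM in shGRHL2. The groups did not overlap, and the difference of −0.73 ± 0.11 was within the limit. FZD2 was next, at 19.22, 16.4, 18.31 and 18.84 FPKM in shLuc and at 14.4, 11.57, 13.89 and 12.72 FPKM in shGRHL2. Its difference was −0.44 ± 0.16, and its share of the summed Frizzled FPKM was 23.8% and 23.7%. That of FZD6 was 55.1% and 45.4%.

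FZD4 (chromosome 11, 86656721 to 86666437 on the minus strand, GRCh37), which also receives the non-Wnt ligand norrin and is known from the growth of retinal vessels, was higher past the limit. It was at 0.92, 0.98, 0.95 and 0.76 FPKM in shLuc and at 3.21, 3.41, 3.9 and 3.68 FPKM in shGRHL2. Every shGRHL2 run was over 3 FPKM and every shLuc run under 1 FPKM. The mean was 3.93-fold higher (95% exact interval 3.42 to 4.53), a difference of 1.26 ± 0.12 that was 1.12 with TPM. The endothelial markers TIE1 (0.723 ± 0.20 and 84.7 ± 1.90 FPKM), CDH5 (0.038 ± 0.057 and 10.8 ± 0.88 FPKM) and KDR (listed at 0 in shLuc, 1.27 ± 0.16 FPKM in shGRHL2) were higher in the same library. The other 5 analysed had means under 1 FPKM in both libraries. Of these, CLDN5 (0.125 and 0.0325 FPKM) and ESAM (0.49 and 0.42 FPKM) had lower means in shGRHL2, and ERG, TEK and VWF higher ones. The part of these markers in the result was not tested.

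FZD1 lay just inside the limit, at 1.57 ± 0.24 and 3.93 ± 0.22 FPKM with no overlap. Its difference was 0.94 as deposited, 1.05 with equal medians and 0.83 with TPM. FZD1 and FZD4 together were a small share of the family, 2.06% and 1.18% of the summed FPKM in shLuc and 7.11% and 6.43% in shGRHL2. FZD3, FZD5 and FZD7 had shLuc means of 3.07 to 5.39 FPKM and differences of −0.53, −0.35 and −0.39. FZD8, FZD9 and FZD10 did not exceed 0.13 FPKM in any run. The FZD1 promoter is printed because it holds AACCGG (capitals), which begins 4 bases before the start, as well as ACAAAG on its reverse strand.
FZD1 (chr7:91264183-91264482, plus strand): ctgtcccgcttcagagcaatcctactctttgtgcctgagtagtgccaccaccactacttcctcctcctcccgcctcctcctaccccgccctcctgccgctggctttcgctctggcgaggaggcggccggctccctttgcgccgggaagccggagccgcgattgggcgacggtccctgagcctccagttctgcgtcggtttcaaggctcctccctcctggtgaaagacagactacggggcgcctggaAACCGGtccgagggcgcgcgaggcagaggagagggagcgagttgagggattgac

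Of the co-receptors of β-catenin signalling, LRP5 (chromosome 11, 68080059 to 68216743 on the plus strand, GRCh37), known for its role in bone mass, was lower past the limit and LRP6 was not. LRP5 was at 13.33, 14.59, 14.04 and 13.23 FPKM in shLuc. It was at 7.17, 6.06, 6.91 and 4.96 FPKM in shGRHL2. The groups did not overlap, and run 4 was the lowest of shGRHL2. The mean was 2.20-fold lower (95% exact interval 2.05 to 2.36), a difference of −1.03 ± 0.21. It was −0.94 without shGRHL2 run 4 and −0.92 with equal medians, both within the limit. LRP6 had means of 15.1 ± 0.97 and 14.4 ± 2.03 FPKM with overlapping runs and a difference of −0.08, which was 0.03 with equal medians. The LRP5 difference minus that of LRP6 was not tested.

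The receptors of the other branches differed in opposite directions within the limit. RYK, a receptor with an inactive kinase domain, was at 53.46, 68.83, 52.44 and 56.11 FPKM in shLuc and at 38.73, 34.35, 40.2 and 45.75 FPKM in shGRHL2. ROR1, a receptor of WNT5A, was at 16.47, 19.18, 17.58 and 18.49 FPKM in shLuc and at 25.13, 24.19, 28.16 and 26.88 FPKM in shGRHL2. Neither gene's groups overlapped, RYK being lower (−0.53 ± 0.24) and ROR1 higher (0.52 ± 0.13). ROR2 was listed at 0 in all 8 runs.

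The 3 kept genes of Frizzled turnover had lower values in shGRHL2 under each scaling, and none passed the limit as deposited. RNF43 was kept through shLuc alone, so the filter fixed its sign. LGR5, which was not kept, went the other way (means of 0.0075 and 0.57 FPKM). RNF43 and ZNRF3 are ligases that remove Frizzled from the cell surface, and LGR4 and LGR5 are receptors for R-spondins, which block those ligases. LGR4 was at 13.24, 11.01, 10.98 and 9.93 FPKM in shLuc and at 5.67, 7.12, 5.62 and 5.43 FPKM in shGRHL2 (−0.82 ± 0.22). ZNRF3 was at 2.49, 2.42, 2.51 and 2.15 FPKM in shLuc and at 1.52, 1.42, 1.46 and 1.38 FPKM in shGRHL2 (−0.47 ± 0.08). Neither gene's runs overlapped between the libraries, and run 2 of shGRHL2 stood above the other 3 for LGR4.

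RNF43 (chromosome 17, 56431037 to 56494956 on the minus strand, GRCh37) was the lowest of the 3 in level and had the largest ratio of means. It was at 1.21, 0.98, 0.95 and 1.05 FPKM in shLuc and at 0.07, 0.02, 0.11 and 0.05 FPKM in shGRHL2. These values correspond to about 168 and 10.7 fragments per library and a 16.8-fold lower mean (95% exact interval 8.83 to 33.1). The difference of −0.95 ± 0.10 stayed inside the limit because the pseudocount of 1 FPKM is as large as the shLuc level, and with a pseudocount of 0.1 it was −2.84. LGR5, a stem cell marker of the intestine, was at 0.03 FPKM in shLuc run 1 and at 0 in the other 3, and at 0.93, 0.62, 0.45 and 0.27 FPKM in shGRHL2. It stayed below 1 FPKM in every run, and with under 1 fragment in shLuc no fold is given. The RNF43 promoter is printed because RNF43 is a known target of β-catenin and TCF and its first RefSeq start holds the TCF/LEF core ACAAAG on the reverse strand (capitals), 90 bases before the start.
RNF43 (chr17:58417485-58417784, minus strand): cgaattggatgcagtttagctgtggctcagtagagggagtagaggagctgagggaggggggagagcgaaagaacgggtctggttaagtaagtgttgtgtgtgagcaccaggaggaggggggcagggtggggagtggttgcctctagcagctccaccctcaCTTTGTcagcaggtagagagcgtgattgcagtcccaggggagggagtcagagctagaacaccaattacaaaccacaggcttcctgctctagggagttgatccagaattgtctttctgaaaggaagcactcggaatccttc

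**Figure D3:**
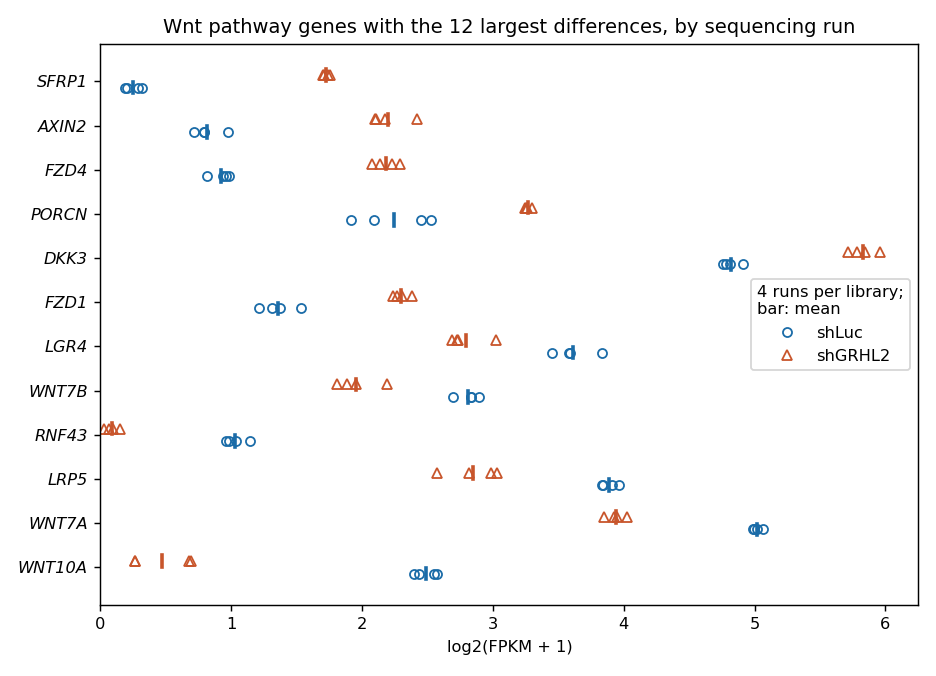
log2(FPKM + 1) in each of the 4 sequencing runs of shLuc (circles) and shGRHL2 (triangles) for the Wnt pathway genes with the largest absolute differences among the 31 kept. Bars mark the means of the runs. For each gene plotted the runs of the libraries do not overlap, with PORCN in shLuc between 2.78 and 4.76 FPKM and WNT10A in shGRHL2 between 0.2 and 0.62 FPKM.

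Secreted antagonists were represented by 3 kept genes, of which 2 were higher past the limit, against 4.97% of all kept genes. The filter fixed the sign of SFRP1, kept through shGRHL2 alone, and DKK3 only just reached the limit. SFRP1 (chromosome 8, 41119481 to 41166992 on the minus strand, GRCh37), which binds Wnt ligands through a Frizzled-like domain, had the largest positive difference of the 31 genes. It was at 0.14, 0.15, 0.25 and 0.22 FPKM in shLuc and at 2.38, 2.35, 2.27 and 2.25 FPKM in shGRHL2. The shGRHL2 runs lay close together and far above the shLuc runs. About 30.3 and 392 fragments per library gave a 12.2-fold higher mean (95% exact interval 8.49 to 18.5) and a difference of 1.48 ± 0.07. In shGRHL2, SFRP1 was 99.5% of the summed FPKM of SFRP1, SFRP2, SFRP4 and SFRP5. In shLuc it was 61.7 ± 15.3% of a sum of only 0.31 FPKM. SFRP2 and SFRP5 reached 0.18 FPKM at most, and SFRP4 and WIF1 were listed at 0 in all 8 runs.

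DKK1, which blocks LRP5 and LRP6, was the most abundant of the 31 genes in both libraries. It was at 132.25, 124.36, 145.6 and 136.29 FPKM in shLuc and at 141.98, 143.66, 140.47 and 148.26 FPKM in shGRHL2. The runs overlapped, and the difference of 0.09 ± 0.10 was −0.01 with TPM. DKK3 (chromosome 11, 11977754 to 12031316 on the minus strand, GRCh37), a divergent family member often low in tumours, was at 26.12, 26.52, 29.18 and 27.03 FPKM in shLuc and at 51.51, 61.08, 54.16 and 56.48 FPKM in shGRHL2. All shGRHL2 runs lay above all shLuc runs. The mean was 2.05-fold higher (95% exact interval 1.95 to 2.16) and the difference of 1.01 ± 0.12 just reached the limit, being 0.97 without shGRHL2 run 2 and 0.90 with TPM. DKK2 was at 0 to 0.03 FPKM in shLuc and 0.13 to 0.39 FPKM in shGRHL2, and DKK4 was listed at 0 in all 8 runs.

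Of the 4 destruction complex genes kept, 1 was higher past the limit, against 4.97% of all kept genes. AXIN2 (chromosome 17, 63524681 to 63557766 on the minus strand, GRCh37), a scaffold of the complex and a widely used readout of β-catenin activity, was higher past the limit. It was at 0.97, 0.73, 0.73 and 0.64 FPKM in shLuc and at 3.29, 3.31, 3.52 and 4.34 FPKM in shGRHL2. The groups did not overlap, and run 4 was the highest of shGRHL2. The mean was 4.71-fold higher (95% exact interval 3.79 to 5.93), a difference of 1.38 ± 0.19. AXIN2 was kept through shGRHL2 alone, so the filter fixed its sign. AXIN1, the constitutive scaffold, was at 9.08 ± 0.81 and 7.92 ± 0.76 FPKM with overlapping runs (−0.18). The AXIN2 difference minus that of AXIN1 was not tested.

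GSK3B, the kinase that marks β-catenin for destruction, was at 33.78, 30.62, 39.05 and 33.51 FPKM in shLuc and at 21.71, 20.18, 16.58 and 19.16 FPKM in shGRHL2. Its groups did not overlap, and the difference of −0.79 ± 0.21 was within the limit. APC was at 22, 20.32, 20.35 and 18.71 FPKM in shLuc and at 19.68, 23.48, 19.14 and 16.19 FPKM in shGRHL2. Its runs overlapped, with a difference of −0.06 ± 0.23 that was 0.05 with equal medians. NKD1, an inhibitor of Dishevelled, was listed at 0 in all 8 runs.

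No TCF/LEF factor passed the limit. TCF7 was the most abundant, at 6.21, 6.85, 6.62 and 7.54 FPKM in shLuc and at 5.6, 6.89, 5.91 and 6.77 FPKM in shGRHL2. TCF7L2 was at 4.41, 3.51, 4.02 and 4.72 FPKM in shLuc and at 4.63, 2.74, 2.88 and 2.61 FPKM in shGRHL2. The runs of both overlapped, with differences of −0.10 ± 0.16 (0.01 with equal medians) and −0.31 ± 0.33. TCF7L1, which acts mostly as a repressor, was at 2.53 ± 0.61 and 1.24 ± 0.22 FPKM with no overlap (−0.64). LEF1 was listed at 0 in all 8 runs. RSEM divides fragments among transcripts, and TCF7 has 28 and TCF7L2 22 of them in the reference, so these levels rest partly on that division.

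**Figure D4:**
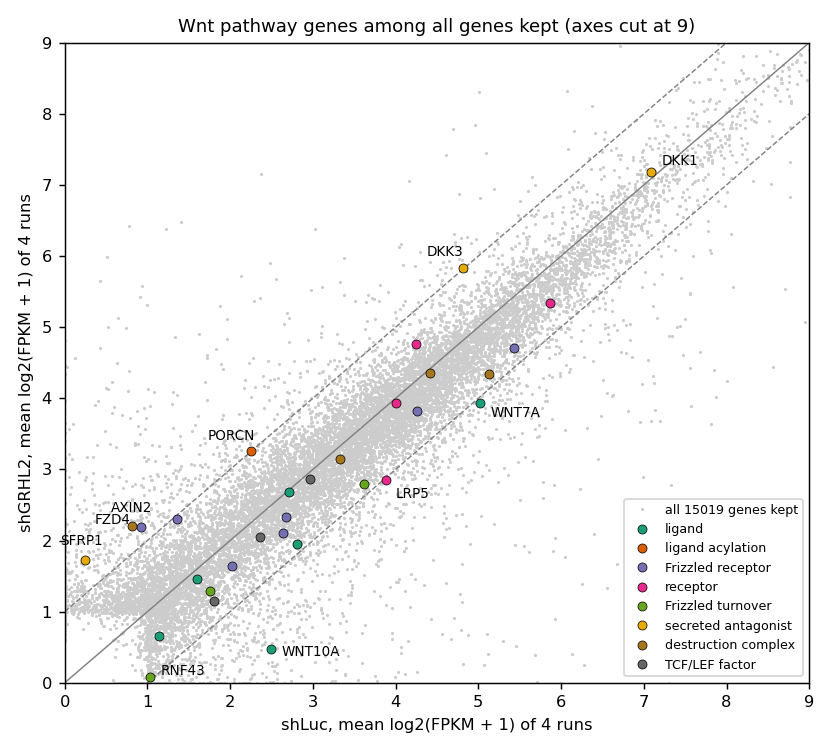
Mean log2(FPKM + 1) of the 4 shLuc runs (horizontal) and of the 4 shGRHL2 runs (vertical) for all 15019 genes kept (grey) and the 31 Wnt pathway genes (coloured by role), with axes ending at 9. The solid line marks equality and dashed lines a difference of 1. Of the Wnt pathway genes 5 lie above the upper dashed line and 3 below the lower one.

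Known feedback targets of β-catenin and TCF among the 57 genes did not share a direction. Of AXIN2, DKK1, LEF1, LGR5, NKD1, RNF43, TCF7 and ZNRF3, 5 were kept, 1 was higher (AXIN2) and none lower, with a median of −0.10, as over all kept genes. AXIN2 was 4.71-fold higher while RNF43 was 16.8-fold lower in mean FPKM, and LEF1 and NKD1 were listed at 0. AXIN2 was kept through shGRHL2 alone and RNF43 through shLuc alone, so the filter fixed both signs. Among the targets that reached 1 FPKM in both groups, only ZNRF3 (−0.47) had runs that did not overlap. Of 33 further Wnt target genes from the literature 24 were kept, of which 4 were higher and 3 lower, or 16.7% and 12.5% against 4.97% and 7.24% of all kept genes, with a median of 0.11. This list was chosen with earlier results of these data known, so its shares are a description only. FGF18, a growth factor, was at 0.443 ± 0.081 and 16.5 ± 0.82 FPKM (37.2-fold higher). It was kept through shGRHL2 alone, so the filter fixed its sign. The inhibitor of differentiation ID2 was at 1.03 ± 0.32 and 7.89 ± 1.06 FPKM. The ephrin ligand EFNB1 was at 4.78 ± 0.51 and 18.4 ± 0.28 FPKM, and the EMT transcription factor TWIST1 at 1.40 ± 0.64 and 6.05 ± 0.91 FPKM. The lower ones included both D-type cyclins listed, CCND1 (218 ± 8.74 and 89.5 ± 2.73 FPKM) and CCND2 (36.8 ± 1.47 and 6.09 ± 0.41 FPKM). SNAI2, named after its values were seen, was the third, with a difference of −1.06.

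Few other genes of the pathway passed the limit. Of 72 further pathway genes 54 were kept, 2 were higher and 2 lower (3.70% each, against 4.97% and 7.24% of all kept genes), with a median of −0.06. PRICKLE1, of the planar polarity branch, was at 1.2, 0.45, 0.98 and 0.41 FPKM in shLuc and at 12.28, 11.18, 13.51 and 11.84 FPKM in shGRHL2, 16.1-fold higher. It was kept through shGRHL2 alone, so the filter fixed its sign. The other 10 planar polarity genes kept lay within the limit. Groucho co-repressors went opposite ways, TLE4 at 12.3 ± 1.42 and 26.8 ± 1.29 FPKM and TLE2 at 7.95 ± 1.42 and 1.45 ± 0.21 FPKM. CTNNBIP1, an inhibitor of β-catenin binding to TCF, was at 29.5 ± 1.82 and 12.6 ± 1.67 FPKM. CTNNB1, which encodes β-catenin itself, was at 101.94, 110.6, 106.34 and 101.67 FPKM in shLuc and at 125.87, 123.73, 126.93 and 124.62 FPKM in shGRHL2. Its groups did not overlap, and the difference was 0.25 ± 0.06. All 5 Dishevelled genes and partners that were kept and all 17 kept genes of the destruction complex and its ligase lay within the limit.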

How the data were processed

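Paired-end RNA-sequencing of total RNA from OVCA429 shLuc and shGRHL2 cells was used. As the labels and methods state, the authors demultiplexed with bcl2fastq 2.17.1.14, aligned to hg19 with STAR 2.4.2a and quantified genes of Gencode v19 with RSEM 1.2.25, and deposited FPKM per gene. The deposited table also held 2 columns of no sample, each gene's length and effective length. The deposited FPKM are not counts, so no count test was run.

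Differences are group means of log2(FPKM + 1) from the deposited values, with a filter at a mean of 1 FPKM and a limit of 1, computed with Python 3.11.15, numpy 2.4.6 and pandas 2.3.3. The pseudocount understates changes of low genes. With 1 library per group no test was made. Approximate fragments were rebuilt from FPKM, effective length and depth (86.9% to 88.3% of low values per run whole within 0.1 fragment), and 95% exact binomial intervals of ratios (scipy 1.17.1) cover counting error only. The code of the comparison was run on simulated data with counting error only and changes well past the limit. That run does not test calls near the limit or differences between cultures. Positions come from Gencode v44 lifted to GRCh37. The 57 genes and all lists were chosen with earlier results of these data known. Values in all 8 runs are given for members past the limit and the up to 2 most abundant per role, and PRICKLE1, CTNNB1, RNF43 and LGR5 were added after their values were seen. Other pseudocounts, filters, scalings and left-out runs were tried.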

Additional observations from a re-analysis of the deposited data

Results flagged for a closer look

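Within a library, 64 sets of 4 runs were examined (the 31 kept Wnt pathway genes and GRHL2) for a run whose gap to its nearest neighbour exceeded Dixon's 95% critical share of the range. Chance gives about 1 in 20, and 4 were found, all in shGRHL2 and each in another run. FZD6 was at 23.68 FPKM in run 4 and at 25.42 to 25.6 FPKM in the others. LGR4 was at 7.12 FPKM in run 2 and at 5.43 to 5.67 FPKM in the others. TCF7L2 was at 4.63 FPKM in run 1 and at 2.61 to 2.88 FPKM in the others. GRHL2 was at 1.17 FPKM in run 3 and at 0.1 to 0.15 FPKM in the others.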

How the results depend on the processing

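No paired analysis was possible because the result comes from no test, each group being 1 library in 4 runs. Deviations of runs with the same number correlated at −0.07 to 0.01. The count of higher members was 5 as reported, 3 with TPM, 3 with TPM without mitochondrial ribosomal RNAs and 2 with a filter at 5 FPKM, which keeps 19 members, and between 3 (without shLuc replicate 2) and 5 with 1 run left out. The count of lower members was 3 as reported, 1 with equal medians, 5 with a pseudocount of 0.1 (WNT7B and RNF43 joined), and 2 to 3 with 1 run left out. The median difference of members was −0.35 as reported, −0.42 with TPM, −0.24 with equal medians, −0.10 without a filter, −0.41 with a pseudocount of 0.1, and −0.37 to −0.33 with 1 run left out. A scaling added after seeing the data, FPKM without the fragments of mitochondrial ribosomal RNAs, raised the median of all genes by 0.13 and gave 6 higher and 2 lower members (RNF43 and WNT10A), a median of −0.23, 7 other pathway genes past the limit and 51.4% higher among all genes past the limit. Over all genes 746 were higher as reported, 464 with the 5 FPKM filter and 1324 with a pseudocount of 0.1, and 1087 were lower, against 1663 with that pseudocount. Other pathway genes past the limit were 4 as reported and 8 with that pseudocount. Of 100 differences of 20 named genes under the other pseudocount and scalings, 25 moved by more than the SD between runs. Causes were not tested. Depth limits the values of genes under 1 FPKM, and a culture effect cannot be told apart from the hairpin.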
